A study of Mus musculus with 9 samples.

Results

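The nuclear-encoded subunits of the respiratory chain, the enzymes of the inner mitochondrial membrane that pass electrons from NADH and succinate to oxygen, were followed in mouse brain after injection of a baculoviral vector. They were taken from the array by name: every probe set with a single gene symbol that begins with Nduf, then a, b, c, s or v and a digit (complex I), that is Sdha, Sdhb, Sdhc or Sdhd (complex II), that begins with Uqcr (complex III), or that begins with Cox and a digit from 4 to 8 (complex IV). The pattern leaves out the complex I assembly factors, whose names begin with Ndufaf. It found 133 of 45101 probe sets, for 64 genes: 73 probe sets of 35 genes in complex I, 9 of 4 in complex II, 16 of 8 in complex III and 35 of 17 in complex IV. No measured value entered the choice. The 64 genes lie on many chromosomes, with at most 8 on any of them (chromosome 7).

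The samples were 9 BALB/c mice, adult, male and immunocompetent, with 1 Affymetrix array per mouse and 3 mice per group. BV-HSVtk, a vector built from an insect baculovirus, was injected into the striatum on each side as 100000000 particles in 10 µL, and tissue around the injection sites was taken 2 days later. The groups differ in how the vector was purified: HS stands for high-speed centrifugation, and MC+HS for membrane chromatography combined with that centrifugation. Mock mice received Sf9 insect cell medium that held no baculovirus and had gone through the MC+HS purification, so no group was left uninjected and no mock preparation went through HS alone. The tissue is a mixture of cells, and fewer cells of a type cannot be told apart from less RNA per cell.

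Complex I takes electrons from NADH, complex II from succinate in the citric acid cycle, complex III passes them to cytochrome c, and complex IV hands them to oxygen. Most subunits are encoded in the nucleus and are needed in fixed proportions, and neurons depend heavily on the chain for ATP. Several subunits of complex IV exist as a widely expressed form and a second form typical of muscle, lung or testis. Ndufa4 carries a complex I name but was later found to be a subunit of complex IV, and is counted here under complex I by its name. Cox7a2l, counted under complex IV, is known as a factor that joins complexes III and IV into supercomplexes.

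Many nuclear genes of the chain share promoter motifs of a few factors, and sequences are shown for members that carry such motifs and for one that carries none of them. RefSeq windows (GRCm38.p6, from 250 bases before to 50 after each start) were matched for 51 of the 64 genes, as 53 windows, and 3 motifs were searched on both strands: GCGCANGCG of nuclear respiratory factor 1 (NRF1), where N is any base, CCGGAAG of the ETS family, to which GABPA belongs; and AAGATGGC of YY1. The motifs share no core, but their matches in a window may overlap. NRF1 letters were in 22.6% of the members' windows and in 6.25% of all 32851 windows, ETS letters in 20.8% against 8.86%, and YY1 letters in 11.3% against 2.75%. All 6 windows with YY1 letters belonged to complex I, which held 33 of the 53 windows. At least 1 of the 3 motifs was in 26 of the 53 windows, 49.1%, against 16% of all windows. By complex it was in 17 of 33 windows (I), 3 of 3 (II), 3 of 5 (III) and 3 of 12 (IV). Among widely expressed complex IV forms, Cox6a1 and Cox6b1 had matches and Cox7a2 had none. These are letter matches and not sites shown to be bound. The 120 bases before the start are printed 5′ to 3′ on the gene's own strand, with matches in capitals, for Sdha (3 NRF1 matches; chr13:74350241-74350360, minus strand), Sdhd (NRF1 and ETS; chr9:50603850-50603969, minus strand), the widely expressed complex IV subunit gene Cox6a1 (NRF1 and ETS; chr5:115348959-115349078, minus strand) and the muscle-type gene Cox8b (no match; chr7:140900447-140900566, minus strand). On the opposite strand the ETS motif reads CTTCCGG, as it does in Sdhd and Cox6a1.
Sdha: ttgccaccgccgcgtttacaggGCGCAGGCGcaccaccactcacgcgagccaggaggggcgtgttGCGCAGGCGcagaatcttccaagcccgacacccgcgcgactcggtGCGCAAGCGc
Sdhd: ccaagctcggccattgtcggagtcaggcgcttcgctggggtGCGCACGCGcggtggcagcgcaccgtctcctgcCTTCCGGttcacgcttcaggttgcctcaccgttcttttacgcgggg
Cox6a1: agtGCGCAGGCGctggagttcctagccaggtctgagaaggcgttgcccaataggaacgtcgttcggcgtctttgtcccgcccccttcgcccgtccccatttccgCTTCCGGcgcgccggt
Cox8b: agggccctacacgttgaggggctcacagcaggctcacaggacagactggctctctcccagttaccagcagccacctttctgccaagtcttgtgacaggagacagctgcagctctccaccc

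Levels are given as log2(signal + 16) after the array medians were aligned. A probe set entered the tests if it was above the 40th percentile of its own array on at least 3 arrays, which 118 of the 133 members were (67 in complex I, 8 in II, 13 in III and 30 in IV), for 62 genes. The 15 that were not include the only probe sets of Cox7b2, a testis form, and of Ndufb4, and extra probe sets of Ndufa12, Ndufb8, Ndufb9, Ndufc2, Ndufs4, Sdha, Uqcr10, Uqcrq, Cox5b, Cox6a2, Cox7c and Cox8a. Of the 133, 69 carry a suffix that marks probes shared between transcripts or gene copies. The 34 that end in _a_at share probes between transcripts of the same gene. The 25 in _x_at and the 10 in _s_at can bind RNA of near-identical copies. Median signals of the arrays ran from 147 to 263. Brain markers were present: 12 of 12 neuronal markers and 10 of 10 medium spiny neuron markers on the array were measured, while 0 of the 4 red blood cell markers on the array passed the filter.

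HS replicate 1 was unlike the remaining arrays, so counts and medians over the members are given with and without it. For single members the level on that array is shown, and differences are from the fit without it unless all arrays are named. Its log2 values had an SD of 1.54, against 2.17 to 2.39 on the others, and its median correlation with the other arrays was 0.757, against 0.956 to 0.979. The ratio of 3′ to 5′ signal of the Gapdh control probes, a measure of RNA integrity and labelling, was 2.00 on that array and 0.865 to 0.932 on the others. The same ratio of the beta-actin control probes set it apart less, at 1.86 against 1.36 to 1.70. The part of these differences in the results was not tested.

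The members held a high and narrow position on the other 8 arrays. Their median rank within an array's own signals was between the 97.3 and 98.1 percentiles, and 96 of the 118 were above the 90th on each of those arrays. On HS replicate 1 the median rank was 93 and 69 members were above the 90th. Over those 8 arrays, whatever their group, the SD of a member had a median of 0.14 on the log2 scale, against 0.18 for all probe sets kept, and 94 of 118 were under 0.2. All probe sets kept include many dimmer ones, and the comparison was not matched for signal. The members that varied most were Cox8b (SD 1.21), Cox8c (0.55), Cox6b2 (0.51) and Cox6a2 (0.50), tissue-restricted forms of complex IV.

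Set against the mean of the mock arrays, the median member was at -1.30 on HS replicate 1, at -0.10 on HS replicate 2 and at -0.03 on HS replicate 3. On the MC+HS arrays the medians were 0.08, -0.28 and -0.14, and on the mock arrays 0.06, 0.00 and -0.06. The same medians over all probe sets kept were -0.61, 0.01 and 0.05 in HS and 0.06, -0.03 and -0.06 in MC+HS. Apart from HS replicate 1, the groups overlapped: MC+HS replicate 1 lay above every mock array, and MC+HS replicates 2 and 3 lay below them.

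**Figure D1:**
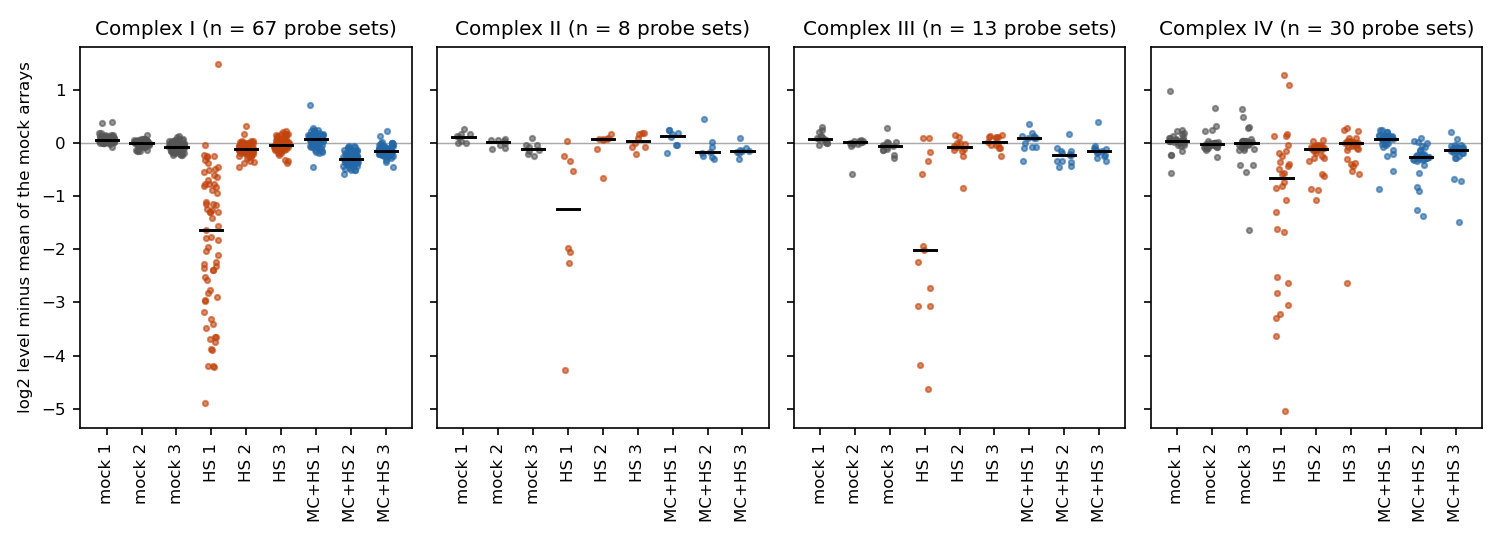
Level of each respiratory chain probe set minus its mean on the mock arrays (log2 units), in 1 column per array and 1 panel per complex; points are probe sets and bars are medians. On HS replicate 1 the medians of complexes I to IV are -1.64, -1.25, -2.02 and -0.66, and on the other 8 arrays most points lie close to 0.

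On HS replicate 1 the differences from mock were uneven. There 69 of 118 members (58.5%) were over 1 below the mock mean, against 33.7% of all probe sets kept; 47 were over 2 below and 24 over 3 below, while 27 stayed within 0.5. The array was the lowest of the 9 for 95 of 118 members (80.5%), and for 64.7% of all probe sets kept. Among the 15 members under the filter it was instead the highest of the 9 for 10 (66.7%), and for 63.7% of all probe sets under the filter. Members above the filter were thus more often low on that array and those under it more often high, with exceptions in both: the bright probe set 1448222_x_at of Cox8a was at -0.04 from the mock mean there.

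Probe sets of the same gene disagreed there. Of the 35 genes with at least 2 kept probe sets, 27 had probe sets more than 1 apart on HS replicate 1, with a median range of 2.03. On each of the other 5 vector arrays 0 of the 35 were that far apart, with median ranges from 0.11 to 0.16 and a highest of 0.83. Sdha, the flavoprotein of complex II that oxidises succinate, shows the difference in the deposited signals: its probe sets 1426688_at and 1426689_s_at read 236.7 and 4374 on HS replicate 1, and 5921 and 6544 on HS replicate 2. For Cox6a1 the 2 probe sets were -5.04 and -1.68 from the mock mean on HS replicate 1. The 5 of Ndufa7, an accessory subunit of complex I, ran there from -2.57 to 1.48.

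**Figure D2:**
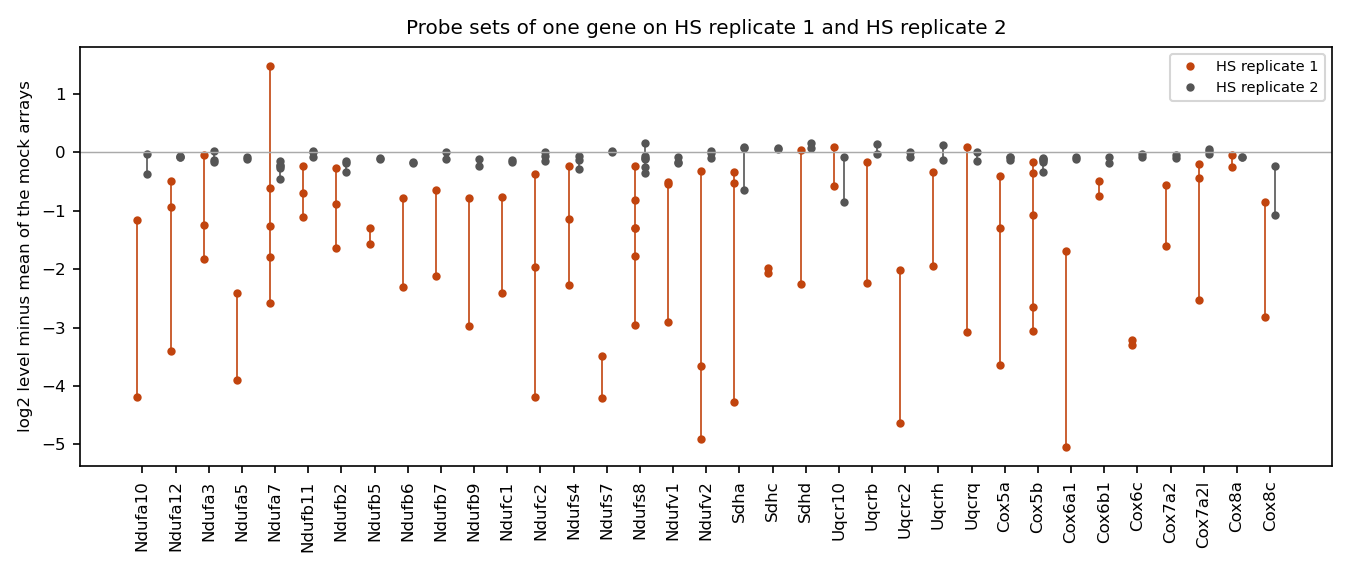
Probe sets of each of the 35 genes with at least 2 kept probe sets, as log2 level minus the mock mean, on HS replicate 1 (orange) and HS replicate 2 (grey); a line joins the probe sets of a gene. Probe sets of Ndufv2 span 4.58 on HS replicate 1, where 27 of the 35 genes span over 1, and 0 of 35 do on HS replicate 2.

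For HS against mock, limma called 0 of 118 members at an adjusted p under 0.05 (smallest 0.501), where it called 0.775% of all probe sets kept. At an unadjusted p under 0.05 there were 3 members, all lower: Ndufa10, Sdha (1433293_at) and Cox8c (1443789_x_at). That is 2.54% of members, against 6.67% of all probe sets. The Sdha probe set was under the filter percentile on every HS array and entered only through mock and MC+HS arrays. The median member differed by -0.57 and 113 of 118 were below 0, against a median of -0.21 and 73.5% over all probe sets. By complex the medians were -0.62 (I), -0.52 (II), -0.66 (III) and -0.34 (IV). The 3 HS arrays lay below all 3 mock arrays for 23 members (19.5%), and for 10.1% of all probe sets.

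Without HS replicate 1 the difference between HS and mock shrank to a median of -0.06 over 117 members, with 85 below 0, while the median over all probe sets was 0.03 and 44.3% of them were below 0. By complex the medians were -0.07 (I), 0.06 (II), -0.04 (III) and -0.06 (IV). limma again called 0 members (smallest adjusted p = 0.191), where it called 3.32% of all probe sets. At an unadjusted p under 0.05 there were 4, all lower (Ndufa10, Ndufa7, Cox8b and Cox8c), or 3.42% of members against 14.2% of all probe sets. Cox8b was under the filter percentile on every HS array and entered only through mock and MC+HS arrays. HS replicates 2 and 3 lay below all mock arrays for 27 members (23.1%), and for 13.5% of all probe sets. The 95% interval of the difference was within 0.5 of 0 for 95 of 117 members (81.2%) and within 1 for 110 (94%), against 53.6% and 92.6% of all probe sets. These shares, here and for the other contrasts, were not matched for signal. For most members, as for most probe sets, a change of more than 1 on the log2 scale thus lies outside the interval.

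For MC+HS against mock the median member differed by -0.12, with 108 of 118 below 0, and the median over all probe sets was -0.02 with 53.7% below 0. By complex the medians were -0.13 (I), -0.06 (II), -0.12 (III) and -0.10 (IV). limma called 0 members (smallest adjusted p = 0.934), where it called 0.58% of all probe sets, and 1 at an unadjusted p under 0.05 (Cox6b2, lower), where 4.89% of all probe sets were. The MC+HS arrays lay below all mock arrays for 9 members (7.63%), and for 9.84% of all probe sets. All groups share 1 error estimate, and leaving out HS replicate 1 took the median half-width of the 95% interval from 0.90 to 0.23. Then limma called 0 of 117 (smallest adjusted p = 0.21), where it called 3.34% of all probe sets. At an unadjusted p under 0.05 there were 7, all lower (both probe sets of Ndufa10, and Ndufb2, Ndufs1, Uqcrq, Cox6b2 and Cox7a1), or 5.98% of members against 14.2% of all probe sets. The interval was within 0.5 of 0 for 99 of 117 (84.6%), against 63.7% of all probe sets. The median moved to -0.22 without MC+HS replicate 1 and to -0.04 without MC+HS replicate 2, so its size rests on which of these animals are counted. With quantile normalization added to leaving out HS replicate 1, a setting chosen after seeing the data, Ndufb9 passed in both vector groups and Uqcrq in MC+HS, each with a difference between -0.20 and -0.17, where 3.67% and 4.4% of all probe sets were called in HS and MC+HS. In that setting 30 of 117 members (25.6%) in HS and 34 (29.1%) in MC+HS had an unadjusted p under 0.05, all lower, against 16.4% and 18.2% of all probe sets, so the order of members and background turned with the scaling.

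Between the vector preparations (MC+HS against HS) the sign of the median depended on HS replicate 1. It was 0.38 with that array (0.19 over all probe sets) and -0.07 without it (-0.05 over all probe sets). limma called 0 of 118 members (smallest adjusted p = 0.728) and 0% of all probe sets, and 1 member at an unadjusted p under 0.05 (Cox8c, higher) against 3% of all. Without HS replicate 1 it called 0 of 117 (smallest adjusted p = 0.5), where 0.00357% of all probe sets were called, and 1 unadjusted (Cox8c again), where 7.65% were. The 95% interval was then within 0.5 of 0 for 98 of 117 (83.8%), against 58.2% of all probe sets. The HS and MC+HS comparisons with mock share the mock arrays, so their values are given side by side only.

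**Figure D3:**
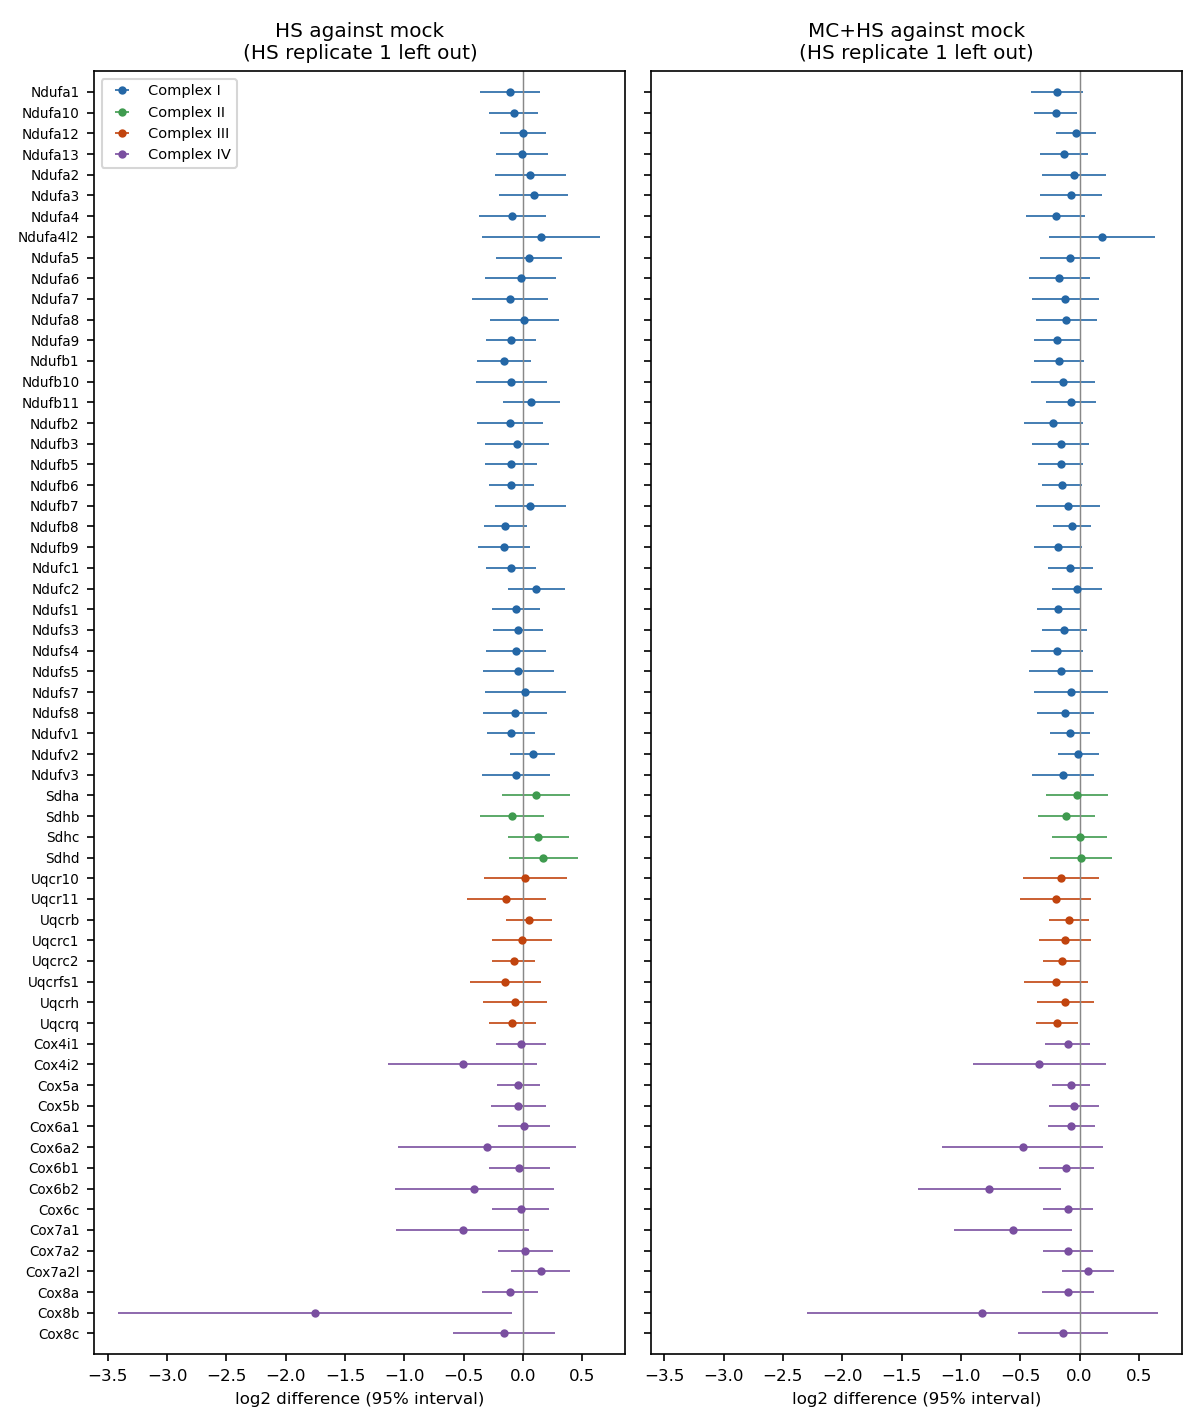
Log2 difference from mock with its 95% interval (limma, HS replicate 1 left out) for the brightest probe set of each of 61 genes, coloured by complex, for HS (left) and MC+HS (right). Most points lie within 0.2 of 0 (56 genes in HS and 53 in MC+HS), and the wide intervals belong to Cox8b, Cox6a2, Cox6b2, Cox7a1 and Cox4i2.

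In complex I, Ndufa4 had levels of 13.19, 13.15 and 13.15 in mock, 11.74, 13.10 and 13.06 in HS and 13.26, 12.73 and 12.92 in MC+HS. Every HS array was below the mock arrays, by little in replicates 2 and 3, and the MC+HS arrays lay on both sides. Without HS replicate 1 its difference from mock was -0.09 ± 0.13 (SE) in HS (adjusted p = 0.814) and -0.20 ± 0.11 in MC+HS (adjusted p = 0.488), and with all arrays -0.53 ± 0.36 in HS. Ndufv2, an iron-sulphur subunit of the NADH-binding arm, was steadier: its probe set 1452692_a_at read 12.99, 13 and 13.01 in mock, 12.68, 13 and 13.17 in HS and 13.09, 12.93 and 12.96 in MC+HS. The groups overlapped, and a second probe set of the gene was at 8.08 on HS replicate 1 but between 12.80 and 13.14 on the other arrays.

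Ndufa10, an accessory subunit of complex I, was the complex I member with the lowest p in HS over all arrays. Its probe set 1418068_at read 9.23, 9.21 and 9.16 in mock, 8.04, 8.84 and 8.88 in HS and 8.74, 8.70 and 9.18 in MC+HS. All HS arrays were below all mock arrays, and MC+HS replicate 3 reached the mock range. The difference without HS replicate 1 was -0.34 ± 0.14 in HS (adjusted p = 0.308) and -0.33 ± 0.13 in MC+HS (adjusted p = 0.268), and neither passed. The gene's other probe set, 1448934_at, gave -0.08 ± 0.09 and -0.20 ± 0.08, so the 2 probe sets differed in size in HS.

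Ndufa7 (1422976_x_at) read 12.12, 11.78 and 11.91 in mock, 9.37, 11.49 and 11.56 in HS and 12.09, 11.44 and 11.89 in MC+HS. HS was below mock on each array, with a difference of -0.42 ± 0.17 without replicate 1 (adjusted p = 0.284), while MC+HS overlapped mock (-0.13 ± 0.15). The brightest of the gene's 5 kept probe sets, 1450818_a_at, gave -0.11 in HS and -0.12 in MC+HS on the same fit, so the 2 groups were alike on it. Ndufb2 was named for its probe set 1442658_at, which had the smallest p of complex I between the vector groups. It read 7.48, 7.34 and 7.60 in mock, 7.20, 7.13 and 7.14 in HS and 7.33, 7.31 and 7.60 in MC+HS. The HS arrays were the lowest of all, with a difference from mock of -0.34 ± 0.16 and MC+HS above HS by 0.28 ± 0.16 (adjusted p = 0.387 and 0.734), while its brightest probe set gave -0.11 ± 0.13 in HS.

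Ndufs1, the largest subunit and carrier of several iron-sulphur clusters, differed by -0.06 ± 0.09 in HS and -0.18 ± 0.08 in MC+HS (adjusted p = 0.842 and 0.352), and by -0.88 ± 0.59 in HS with all arrays. Ndufv1, which binds NADH and FMN, and Ndufs3 and Ndufs7, of the arm that leads to ubiquinone, gave 6 probe sets between -0.10 and 0.11 in HS and between -0.13 and 0.05 in MC+HS. Over all 67 complex I probe sets the differences without HS replicate 1 ran from -0.42 to 0.15 in HS and from -0.33 to 0.19 in MC+HS. The highest of them in both was Ndufa4l2, the hypoxia-inducible relative of Ndufa4, at 0.15 ± 0.23 and 0.19 ± 0.20.

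Complex II differed little from mock on the arrays other than HS replicate 1. Sdhb, its iron-sulphur subunit, read 12.76, 12.71 and 12.69 in mock, 12.48, 12.61 and 12.65 in HS and 12.88, 12.41 and 12.54 in MC+HS. The HS arrays were all below mock and the MC+HS arrays lay on both sides, with differences of -0.09 ± 0.12 and -0.11 ± 0.11 without HS replicate 1. Sdhd, a membrane anchor, gave 0.17 ± 0.13 in HS (1428235_at; adjusted p = 0.62), the highest value of any member there, and 0.01 ± 0.12 in MC+HS. Sdhc, the other anchor, had the smallest p of complex II in MC+HS: its probe set 1435986_x_at read 11.24, 11.07 and 11.04 in mock, 9.06, 11.18 and 11.21 in HS and 11.08, 10.94 and 11.02 in MC+HS. The groups overlapped apart from HS replicate 1, with differences of 0.08 ± 0.10 in HS and -0.11 ± 0.09 in MC+HS (adjusted p = 0.791 and 0.67), and -0.63 ± 0.52 in HS with all arrays.

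The probe sets of Sdha disagreed in size, and in sign in HS without replicate 1. The one with the highest mean, 1426689_s_at, gave 0.11 ± 0.13 in HS and -0.02 ± 0.12 in MC+HS. The much dimmer 1433293_at read 6.92, 6.82 and 7.03 in mock, 6.40, 6.28 and 6.72 in HS and 6.73, 6.65 and 7.02 in MC+HS, with all HS arrays below mock. Its HS difference was -0.46 ± 0.20 over all arrays and -0.43 ± 0.22 without replicate 1 (adjusted p = 0.635 and 0.421). The probe set was under the filter percentile on every HS array, at ranks of 21.9, 32.1 and 39.4. It entered the tests through the 3 mock arrays (40.2 to 42.6) and MC+HS replicate 3 (42.7), so its HS difference supports nothing. The complex II median in HS was 0.06 without replicate 1, and 2 of its 8 probe sets were below 0.

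In complex III, Uqcrb, which binds ubiquinone, read 13.19, 13.10 and 13.09 in mock, 12.96, 13.10 and 13.24 in HS and 13.12, 12.96 and 13.01 in MC+HS (1455997_a_at). The groups overlapped, and without HS replicate 1 the differences were 0.05 ± 0.08 and -0.09 ± 0.08. Uqcr11, a small accessory subunit, read 13.04, 12.88 and 12.87 in mock, 8.76, 12.69 and 12.89 in HS and 13.07, 12.46 and 12.65 in MC+HS. The groups overlapped apart from HS replicate 1, with -0.14 ± 0.15 and -0.20 ± 0.13 from mock, and -1.48 ± 0.92 in HS with all arrays. Uqcr10, another small subunit, had the smallest p of complex III in HS on its probe set 1434341_x_at, which read 8.66, 7.77 and 8.64 in mock, 8.44, 7.51 and 8.36 in HS and 8.28, 8.14 and 8.23 in MC+HS. The groups overlapped, with -0.42 ± 0.29 in HS and -0.14 ± 0.26 in MC+HS (adjusted p = 0.571 and 0.872), -0.25 ± 0.30 in HS with all arrays, and a call under array quality weights, which did not converge (-0.71 ± 0.16, adjusted p = 0.00576). The gene's brightest probe set gave 0.02 in HS. Uqcrq (1430326_s_at) read 12.90, 12.91 and 12.91 in mock, 9.84, 12.76 and 12.87 in HS and 12.82, 12.57 and 12.76 in MC+HS. On this probe set every vector array was below every mock array. The differences were -0.09 ± 0.09 in HS and -0.19 ± 0.08 in MC+HS without HS replicate 1, and neither passed (adjusted p = 0.703 and 0.307). The gene's dimmer probe set 1427880_at overlapped mock, at percentile ranks of 43.5, 40.7 and 34.3 in mock, 34.5, 40.4 and 39.6 in HS and 35.2, 42.4 and 45.8 in MC+HS. Uqcrfs1, the Rieske iron-sulphur protein, and Uqcrc1 and Uqcrc2, the core proteins, gave differences from -0.15 to 0.06 in HS and from -0.20 to -0.01 in MC+HS.

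In complex IV, Cox6a1 read 13.58, 13.61 and 13.64 in mock, 8.56, 13.54 and 13.70 in HS and 13.72, 13.39 and 13.50 in MC+HS (1417417_a_at). The low HS value was that of replicate 1, and the other arrays overlapped, at 0.01 ± 0.10 and -0.07 ± 0.09 from mock without it, against -1.67 ± 1.14 in HS with it. Cox7a2 (1416970_a_at) read 13.47, 13.49 and 13.60 in mock, 12.96, 13.47 and 13.62 in HS and 13.60, 13.24 and 13.44 in MC+HS, also with overlap, at 0.02 ± 0.11 and -0.10 ± 0.09. Cox4i1, the usual form of the subunit that senses ATP, differed by -0.02 ± 0.09 and -0.10 ± 0.08. Cox7a2l was at 0.15 ± 0.11 and 0.07 ± 0.10 for its brightest probe set.

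Cox8b, Cox7a1, Cox6b2, Cox6a2 and Cox4i2, tissue-restricted forms of complex IV subunits, had mean levels below mock in both vector groups without HS replicate 1, with wide errors. So did most members (85 of 117 in HS and 107 in MC+HS). Apart from Cox6a2 (ranks of 58.3 to 78.1 on those arrays), they were near the filter at the 40th percentile. Their ranks were 8.8 to 56.4 (Cox8b), 27.7 to 45.9 (Cox4i2), 35.8 to 53.4 (Cox7a1) and 31.5 to 56.1 (Cox6b2). Cox8b was under the filter percentile on every HS array, and Cox4i2 on HS replicates 2 and 3. Cox8b, the muscle form of subunit 8, read 7.91, 7.59 and 5.30 in mock, 7.06, 6.07 and 4.29 in HS and 6.80, 6.11 and 5.44 in MC+HS. Mock alone spanned 5.30 to 7.91, and the groups overlapped. Its difference in HS was -1.12 ± 0.83 with all arrays and -1.75 ± 0.75 without replicate 1 (adjusted p = 0.319), and in MC+HS -0.82 ± 0.67. Cox7a1, the muscle form of subunit 7a, read 7.71, 7.38 and 7.33 in mock, 7.61, 6.84 and 7.09 in HS and 7.43, 6.57 and 6.75 in MC+HS. All but replicate 1 of each vector group were below mock, with -0.51 ± 0.25 and -0.56 ± 0.23 without HS replicate 1 (adjusted p = 0.413 and 0.288).

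Cox6b2, the testis form of subunit 6b, read 7.84, 7.90 and 7.25 in mock, 7.83, 7.37 and 7.14 in HS and 7.43, 6.30 and 6.98 in MC+HS. The difference in MC+HS was -0.76 ± 0.27 without HS replicate 1 (adjusted p = 0.21), on arrays that overlapped mock, and -0.41 ± 0.31 in HS. Cox6a2, the muscle form of subunit 6a, differed by -0.30 ± 0.34 and -0.48 ± 0.31, and Cox4i2, the lung form of subunit 4, by -0.51 ± 0.28 and -0.34 ± 0.25. Cox4i2 was at 8.19 on HS replicate 1, above its 8 other values of 6.04 to 7.21, so its difference in HS was 0.08 ± 0.47 with that array. On HS replicates 2 and 3 it was under the filter percentile, at ranks of 32.8 and 36. Without HS replicate 1 it entered only through mock replicates 2 and 3 and MC+HS replicate 2. Its HS difference in that fit thus supports nothing. None of these forms passed the test in either fit. Their widely expressed partners Cox4i1, Cox6a1, Cox6b1 and Cox7a2 differed from mock by -0.11 to 0.02 in the vector groups without that array.

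Muscle markers give a measure of stray muscle tissue. Of 12 such genes 4 passed the filter (Acta1, Myl1, Ckm and Myh7), and Myh1, Myh2, Myh4, Tnnt3, Tnni2, Mb, Myh6 and Actc1 did not. The median of those 4 was between -0.13 and -0.02 on the vector arrays other than HS replicate 1, where it was 0.30. Choroid plexus and ependyma markers had medians of -1.18, -0.49 and -0.74 in HS, -0.74, -0.92 and -0.54 in MC+HS and 0.28, 0.31 and -0.58 in mock, so mock replicate 3 lay among the vector arrays. Their part in the values of the tissue-restricted forms was not tested.

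**Figure D4:**
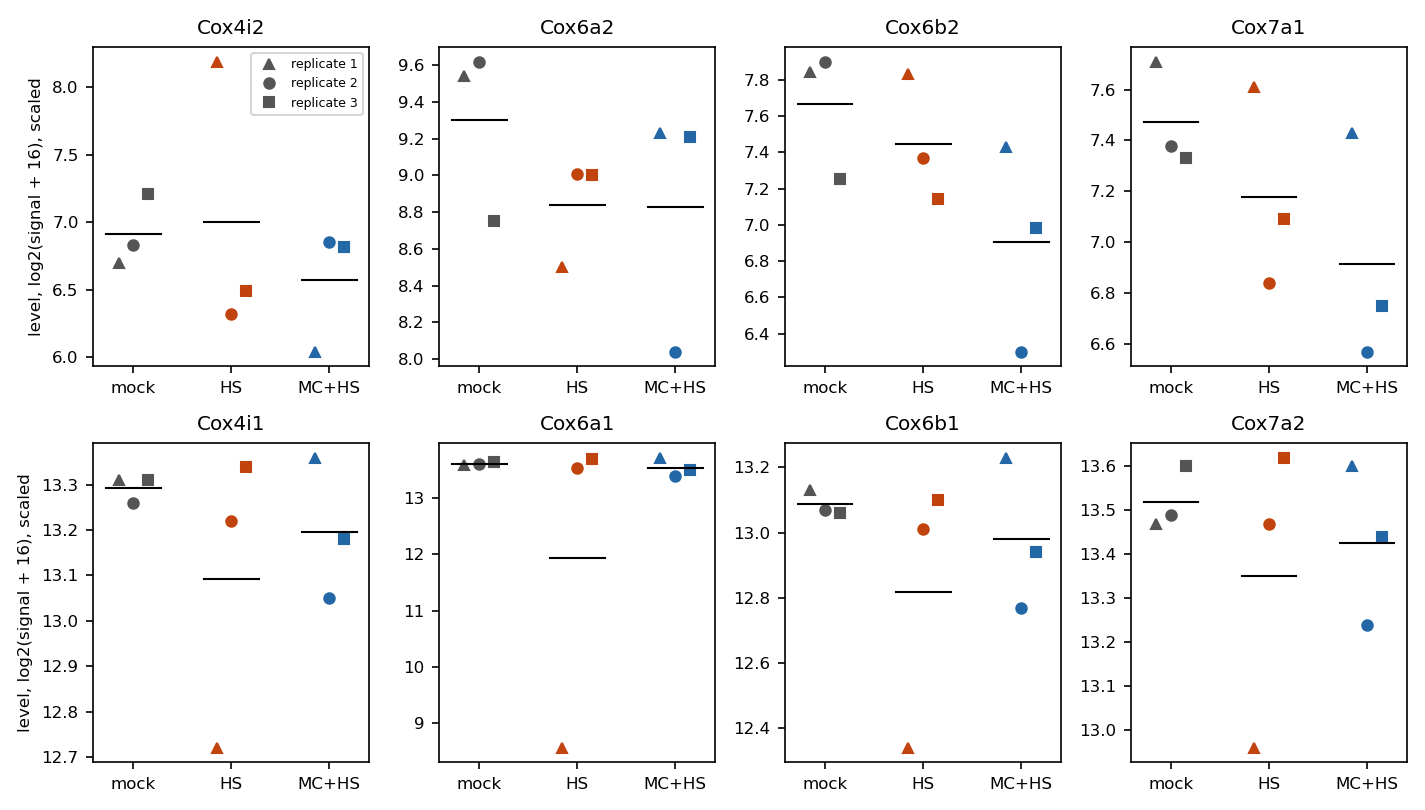
Levels (log2(signal + 16), array medians aligned) of tissue-restricted forms (top) and of their widely expressed partners (bottom) of complex IV on each array, with bars at the group means and 1 scale per panel. Cox7a1 runs from 6.57 to 7.71 and Cox6b2 from 6.30 to 7.90, while the partners vary little except on HS replicate 1, the orange triangle.

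Cox8c, the testis form of subunit 8, had the smallest p of the members in HS, and its probe sets disagreed. On 1443789_x_at it read 7.80, 8.28 and 9.0 in mock, 7.52, 7.29 and 7.78 in HS and 8.56, 8.36 and 8.56 in MC+HS. All HS arrays were below all arrays of the other groups. The difference was -0.83 ± 0.28 in HS with and without replicate 1 (adjusted p = 0.501 and 0.191) and 0.13 ± 0.25 in MC+HS, and MC+HS was above HS by 0.96 ± 0.28 (adjusted p = 0.5), none of which passed. On 1455167_at the same differences without HS replicate 1 were -0.16 ± 0.19, -0.14 ± 0.17 and 0.03 ± 0.19.

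None of 90 measured genes of the pathway outside the name pattern passed the test in either fit. ATP synthase is the enzyme that uses the gradient the chain builds. Of 15 measured genes of its subunits and its inhibitor Atpif1, 0 were called in either vector group with or without HS replicate 1. All 15 were below 0 in MC+HS with a median of -0.08, against 53.7% of all probe sets and a median of -0.02. In HS the median of these 15 genes was -0.60 with HS replicate 1 and -0.04 without it. limma also called 0 of 6 genes of cytochrome c, electron transfer flavoprotein and 2 subunits that the pattern leaves out (Cyc1 of complex III and Ndufab1 of complex I), 0 of 13 complex I assembly factors, 0 of 27 assembly factors of complexes II to IV, 0 of 16 citric acid cycle enzymes and 0 of 12 regulators of respiratory gene transcription, in both comparisons with mock. Their medians without HS replicate 1 were between -0.04 and 0.08 in HS and between -0.09 and -0.03 in MC+HS. The 1 measured mitochondrially encoded subunit was also not called. Over these 90 genes, unadjusted p was under 0.05 for 0 with all arrays, against 6.67% of all probe sets in HS and 4.89% in MC+HS. Without HS replicate 1 it was for 5 in HS (3 lower, 2 higher) and 8 in MC+HS (all lower), against 14.2% of all probe sets in each.

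Sdhaf4, an assembly factor of complex II, read 11.19, 11.17 and 11.15 in mock, 9.66, 10.85 and 10.80 in HS and 10.97, 10.62 and 10.81 in MC+HS, with every vector array below every mock array. Without HS replicate 1 it differed by -0.35 ± 0.11 and -0.37 ± 0.10 and did not pass (adjusted p = 0.155 and 0.0762). The factors whose motifs were searched did not pass either. On that fit Nrf1 differed by -0.01 ± 0.14 in HS and -0.29 ± 0.13 in MC+HS (adjusted p = 0.991 and 0.345), Gabpa by 0.36 ± 0.11 and 0.01 ± 0.10 (adjusted p = 0.123 and 0.97), and Yy1 by -0.05 ± 0.11 and -0.04 ± 0.10. Ppargc1a, a coactivator of mitochondrial biogenesis, differed by -0.02 ± 0.12 and 0.04 ± 0.11.

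Of 8 genes known to alter respiratory complexes during inflammation that passed the filter, Acod1 and AA467197 were under its percentile on all 3 mock arrays and entered only through the 6 vector arrays, so their levels are given with no test. Of the other 6, 2 were called higher in each vector group without HS replicate 1, where 3.32% of all probe sets were called in HS and 3.34% in MC+HS. With all arrays 0 of the 6 were called. Acod1 makes itaconate, an inhibitor of succinate dehydrogenase (complex II). It read 4.66, 4.20 and 4.42 in mock, 8.13, 8.67 and 8.72 in HS and 7.89, 7.77 and 7.24 in MC+HS, with every vector array above every mock array. Sdha, Sdhb, Sdhc and Sdhd, which encode its target, were not called in either group.

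AA467197 (also known as Nmes1) encodes a relative of Ndufa4 known to replace it in complex IV in inflamed macrophages. It read 5.96, 4.68 and 4.59 in mock, 7.41, 7.81 and 8.65 in HS and 6.83, 7.73 and 7.50 in MC+HS. All vector arrays were above all mock arrays. Ndufa4 on the same arrays showed the small differences given above. Cmpk2, a mitochondrial nucleotide kinase, and Rsad2, an interferon-induced enzyme, were the 2 called without HS replicate 1, with differences of 2.02 and 3.90 in HS (adjusted p = 0.000796 and 7.51e-05) and 1.65 and 3.40 in MC+HS (adjusted p = 0.00149 and 0.000114). With all arrays they did not pass, at 1.44 and 3.13 in HS (adjusted p = 0.485 and 0.079) and 1.65 and 3.40 in MC+HS (adjusted p = 0.378 and 0.0612). Hif1a, Hmox1, Sod2 and Ecsit did not pass.

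**Figure D5:**
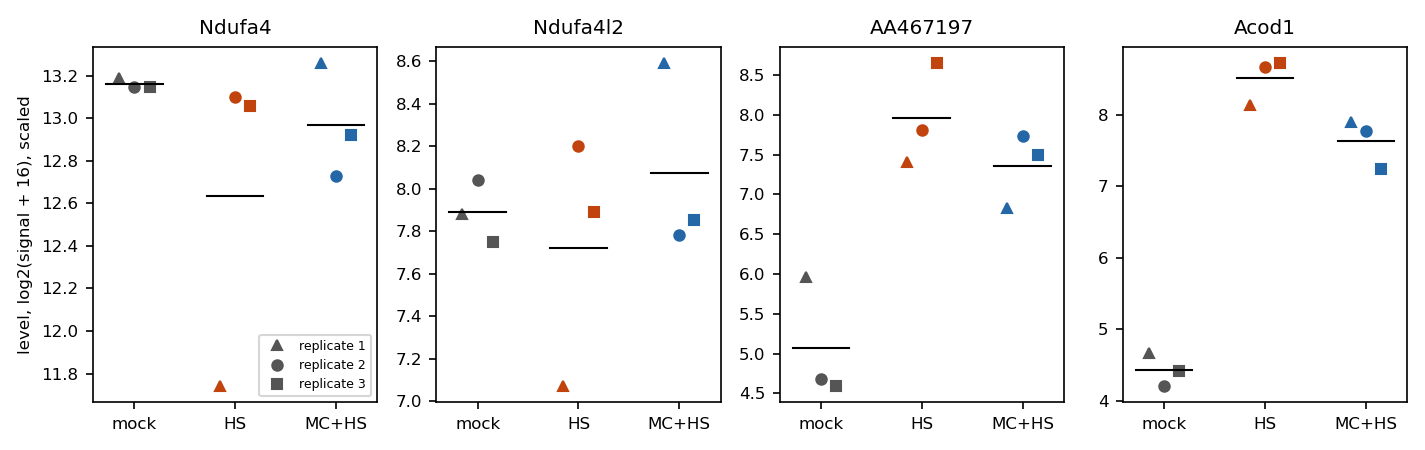
Levels (log2(signal + 16), array medians aligned) of Ndufa4, its relatives Ndufa4l2 and AA467197, and Acod1 on each array, with bars at the group means and 1 scale per panel. AA467197 and Acod1 are higher on all 6 vector arrays than on the 3 mock arrays, and Ndufa4 stays between 12.73 and 13.26 except on HS replicate 1 (11.74).

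Markers of other cells moved as well. Of 10 measured markers of infiltrating monocytes and macrophages, 5 were called higher in each vector group without HS replicate 1, with medians of 1.29 in HS and 1.16 in MC+HS, and 3 in each with all arrays. Of all probe sets, 3.32% in HS and 3.34% in MC+HS were called in either direction without HS replicate 1, and 0.775% and 0.58% with all arrays. Called higher without HS replicate 1 were also 3 of 6 neutrophil and 3 of 8 T and NK cell markers in each group, 2 of 9 endothelial markers in each, 4 of 10 astrocyte markers in HS and 2 in MC+HS, and 1 of 9 oligodendrocyte markers in HS. At an unadjusted p under 0.05, 6 astrocyte markers were higher and 1 lower in HS, and 3 higher and 2 lower in MC+HS. Of all probe sets 14.2% in each group had such a p. Of the markers measured, 3 monocyte, 2 neutrophil and 4 T and NK cell markers were under the filter percentile on all mock arrays and entered through vector arrays, so they had to differ and their calls support nothing. Microglial markers had 3 of 9 called lower in each group without HS replicate 1, with medians of -0.34 and -0.25, and 1 in HS and 2 in MC+HS with all arrays. At an unadjusted p under 0.05 without HS replicate 1, 3 were lower and 2 higher in HS, and 4 lower and 1 higher in MC+HS. Of 8 choroid plexus and ependyma markers 1 was called lower in each group without HS replicate 1. Of 12 neuronal markers limma called 0 (unadjusted, 1 in HS and 2 in MC+HS, all lower, without HS replicate 1); their medians by array were -0.72, -0.04 and 0.10 in HS and 0.12, -0.10 and -0.10 in MC+HS. On the mock arrays they were 0.04, -0.01 and -0.05. In MC+HS replicate 1 was above and replicates 2 and 3 below mock, as for the subunits, while HS replicates 2 and 3 lay inside and above the mock range where the subunits were at -0.10 and -0.03. Medium spiny neuron markers were at -1.81 on HS replicate 1 and between -0.19 and 0.11 on the other vector arrays. The part of cell composition in the subunit levels was not tested.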

How the data were processed

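Each of 9 mice gave 1 array. The authors deposited a linear intensity for each probe set on each array; the submitters' processing notes name GCOS 1.4.0.036. The summary method and scaling behind the intensities are not given in the sources used here, and no detection calls were used. The number of arrays limits the precision.

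Intensities were turned into log2(intensity + 16), array medians were aligned, and 64 control probe sets were dropped, as were probe sets not above the 40th percentile of their array on at least 3 arrays; 28257 of 45101 stayed (27973 without HS replicate 1). Fold changes are on this scale and understate changes of dim genes. Of all probe sets 34945 had 1 symbol in the platform annotation, 932 had several and 9160 none, and only single symbols were used. All 64 member genes matched a RefSeq table (GRCm38.p6) by Entrez identifier, with 0 symbols changed.

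The test was that of limma 3.58.1 (R 4.3.3, statmod 1.5.0), lmFit and eBayes with an intensity trend, in 1 fit over all arrays with the group as the only term, two-sided, with Benjamini-Hochberg adjustment over all probe sets kept in each contrast, called under 0.05. The same was repeated without HS replicate 1, with scaling and filter redone. Errors after ± are standard errors. Per the labels, the replicates are different mice. 0 pairs of arrays held identical values. The scripts were tested on simulated data.

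The members named by rule were, per complex, the 2 brightest in mock and those with the smallest p without HS replicate 1 in each contrast, plus isoform pairs. Others, such as Ndufs1, Ndufs3, Ndufs7, Ndufv1, Sdhd, Uqcrc1, Uqcrc2 and Uqcrfs1, were added after their values were seen, as were members with an unadjusted p under 0.05. The members, the rule and the lists were chosen with earlier results of these data known. Alternatives covered pseudocount, filter, scaling, prior, array weights, replicate block, probe set suffixes and each array left out. Genes or probe sets with several symbols were not counted as members.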

Additional observations from a re-analysis of the deposited data

How the results depend on the processing

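The count of called members, 0 in each contrast, was 0 under every alternative but 2. Array quality weights gave 20 called members for HS against mock (all lower), 3 for MC+HS against mock (all lower) and 11 for MC+HS against HS (6 higher, 5 lower); the weights stopped before convergence, with 48.7 for HS replicate 2 and 0.0148 for HS replicate 1, and 27.5%, 7.59% and 23.1% of all probe sets were then called. The cause was not tested. Quantile normalization together with leaving out HS replicate 1, chosen after seeing the data, gave 1 called member for HS against mock (Ndufb9, -0.20 ± 0.05, adjusted p = 0.0399) and 2 for MC+HS against mock (Ndufb9, -0.17, adjusted p = 0.0442, and Uqcrq, -0.18, adjusted p = 0.0498), where 3.67% and 4.4% of all probe sets were called, and a median of 0.00 for MC+HS against HS. Cox4i2 in HS turned from 0.08 to -0.53 under array weights (adjusted p = 0.0124).

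With 1 array left out at a time, 0 members were called, and medians ran from -0.79 to -0.06 for HS against mock, from -0.22 to -0.04 for MC+HS against mock and from -0.07 to 0.61 for MC+HS against HS. Under quantile normalization the medians were -0.25, -0.11 and 0.16, and with no further scaling -0.26, -0.09 and 0.11; the latter moved the median of all probe sets in HS against mock from -0.21 to 0.09.

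Whether the replicate numbers pair the arrays cannot be settled with so few arrays. Deviations of same-numbered arrays correlated between -0.17 and 0.29, and 4 of 9 arrays correlated best with their own number. With the number as a replicate block, 0 members were called in each contrast, with medians of -0.57, -0.12 and 0.38, and 148, 95 and 0 probe sets were called in all, against 219, 164 and 0.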

Other observations

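Probe sets annotated to several genes were not members. Of 9 with a respiratory chain symbol among them, 8 passed the filter, and the smallest adjusted p was that of the one shared by Ndufb2 and Adck2 (1453806_at), at -0.48 in HS and -0.62 in MC+HS without HS replicate 1 (adjusted p = 0.224 and 0.0647). Probe sets shared by Ndufb4 and its copies were at -0.26 and -0.19 in HS, and both at -0.23 in MC+HS. Those of Ndufs5, of Ndufs6 and 1 of the 2 of Ndufa11 lay between -0.15 and -0.05 in both vector groups. The second one of Ndufa11 was at 0.35 in HS and 0.37 in MC+HS, and that shared by Ndufa13 and Yjefn3 at 0.32 and 0.36.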
